A study of Mus musculus with 6 samples.

Results

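The 6 genes described here are Krt8 and Krt18, the keratins of the hepatocyte, and Krt7, Krt19, Epcam and Sox9, markers of the bile duct lining. They were taken by name from the 55385 genes measured by RNA sequencing in whole mouse liver. All mice were C57BL/6, aged 6 weeks, in 3 groups of 2. Acetaminophen, 500 mg per kg, was given to mice lacking the autophagy receptor optineurin (Optn knockout, replicates 4 and 5) and to wild-type mice (replicates 1 and 4). Phosphate-buffered saline, 200 µL injected into the peritoneum, was given to wild-type controls (replicates 3 and 6), and every liver was taken at 6 h. The labels do not say how the Optn allele was made or whether it is lost in hepatocytes alone, and no saline-treated knockout was analysed here. Total counts ran from 59.1 to 77.3 M (1e6 counts) per library.

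Keratins build the intermediate filaments of epithelial cells, each filament from a type II keratin (Krt7, Krt8) paired with a type I keratin (Krt18, Krt19). Adult hepatocytes make the Krt8 and Krt18 pair, whereas cholangiocytes, the cells that line the bile ducts, add Krt7 and Krt19 and carry the adhesion protein Epcam and the transcription factor Sox9. In injured liver the hepatocyte keratins are known to increase and may aggregate into inclusions with the autophagy receptor p62, and hepatocytes can switch on Sox9. High doses of acetaminophen kill hepatocytes through a reactive metabolite.

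The targeted gene was measured first. Optn had an FPKM (fragments per kilobase of gene model per 1e6 counted fragments) of 0.316 and 0.457 in knockout livers, 9.17 and 9.19 in treated wild-type livers, and 20.95 and 18.7 in controls, so no library went against its label. The tissue label was checked with 6 hepatocyte markers, led by Alb, which together gave 94370 to 135063 CPM (counts per 1e6 counts of the library). Adipocyte markers were looked at because the extraction protocol speaks of adipose tissue. The 7 markers summed to 49.9 and 53.0 CPM in knockout livers, 18.7 to 21.6 CPM in treated wild-type livers and 8.11 to 10.5 CPM in controls, in the order of the groups, with Cidec (at most 2479 counts) and Fabp4 (at most 1613) the most abundant. Of the others, Lep had a count of 0 in every library, Adipoq at most 12 counts, Retn at most 9 and Plin1 at most 4. Cfd went against that order of groups, with 209 and 51 counts in control replicates 3 and 6. It had at most 18 counts in any treated liver. The part of these transcripts in the results was not tested. The libraries also carried traces of other tissues. Of 16 intestinal markers, 14 and 14 had a count in knockout livers, 4 and 6 in treated wild-type livers, and 5 and 13 in control replicates 3 and 6. Fabp2 and Lgals4 were present in every library. The other 14 markers, a subset taken after the values were seen, summed to 18.9 and 31.5 CPM in knockout livers, 0.182 and 0.281 CPM in treated wild-type livers, and 0.203 and 17.5 CPM in control replicates 3 and 6. Of these, 8 (Clca1, Zg16, Agr2, Cdh17, Krt20, Guca2a, Phgr1 and Ceacam20) had a count of 0 in both treated wild-type livers and control replicate 3. Skeletal muscle markers ran the other way, at 4.09 and 4.62 CPM in knockout livers, 62.2 and 72.6 CPM in treated wild-type livers, and 96.0 and 3.94 CPM in control replicates 3 and 6. Neuronal markers summed to 145.8 CPM in treated wild-type replicate 4, against at most 13.96 CPM in the other libraries. Each treated group therefore lay on 1 side of this division, and only the controls lay on both.

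Krt8 (ENSMUSG00000049382, chr15:101996698-102004482, minus strand, GRCm38) and Krt18 (ENSMUSG00000023043, chr15:102028180-102032027, plus strand) are neighbours that point away from each other, with 23697 bases and no other gene of the table wholly between them. Their promoters are shown because both genes had the same order of the 3 groups. The sequences are from RefSeq on GRCm38.p6, chr15:102004333-102004592 (minus strand) for Krt8 and chr15:102027966-102028225 (plus strand) for Krt18. Each runs from 250 bases before the RefSeq start to 10 bases after it, and capitals mark matches to the motifs searched.
Krt8: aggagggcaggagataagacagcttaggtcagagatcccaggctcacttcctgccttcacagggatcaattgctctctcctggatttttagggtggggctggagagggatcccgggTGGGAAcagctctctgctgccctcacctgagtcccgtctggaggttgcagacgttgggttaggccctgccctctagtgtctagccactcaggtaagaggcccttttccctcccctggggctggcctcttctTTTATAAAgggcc
Krt18: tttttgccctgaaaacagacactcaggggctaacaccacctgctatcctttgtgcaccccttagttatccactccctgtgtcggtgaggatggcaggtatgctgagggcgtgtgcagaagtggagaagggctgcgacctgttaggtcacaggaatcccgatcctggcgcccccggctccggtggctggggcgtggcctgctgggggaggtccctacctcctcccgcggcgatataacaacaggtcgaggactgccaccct
The motifs were searched on both strands, and each has a share of all 32851 RefSeq promoter windows of 300 bases that hold it: AP-1 TGANTCA (7.81%), CRE TGACGTCA (1.79%), the TATA box TATAAA (13.6%), the GC box GGGCGG (35.7%), the TEAD motif GGAATG (14.7%) and the RBPJ motif TGGGAA (25.6%). Krt8 held the RBPJ letters 134 bases before the start. It also held TATAAA on each strand, the pair overlapping, with first bases 1 and 3 bases before the start. The deposited table starts Krt8 140 bases and Krt18 36 bases further upstream than RefSeq does. In Krt18 none of the 6 motifs matched, so no motif searched was common to both windows. Of the other members, Krt7 held 4 GC boxes and Epcam 1, and promoters of Krt19 and Sox9 were not analysed here. GC content of the 250 bases before the start was 58.0% for Krt8 and 60.4% for Krt18.

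Krt8 and Krt18 were by far the most abundant of the 6 genes per length, and together made up 98.1% to 99.8% of the summed FPKM of all keratin genes in a library. Krt8 had an FPKM of 537 and 650.3 in knockout livers, 276 and 295 in treated wild-type livers, and 94.8 and 86.8 in control replicates 3 and 6. The 3 groups did not overlap, and the lowest knockout liver stood well above the highest treated wild-type liver. The share of all genes whose 3 groups part in this way was not counted, here or for the genes below. Krt18 had an FPKM of 541 and 606 in knockout livers, 279 and 266 in treated wild-type livers, and 115 and 118 in controls. The order of the groups was that of Krt8, again with no overlap. Group means were 593.7 ± 80.0, 285.5 ± 13.9 and 90.8 ± 5.65 for Krt8 in knockout, treated wild-type and control livers (SD, n = 2 each), and 573.4 ± 45.9, 272.7 ± 8.88 and 116.5 ± 1.95 for Krt18 in the same order of groups. The pseudogene Krt8-ps, which resembles Krt8, held 0.259% to 0.525% as many counts as Krt8, and how reads that match both were counted is not stated. A gene on the opposite strand, Gm36026, overlaps the start of Krt8 and had at most 18 counts in any library.

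The pair did not keep a fixed proportion. The ratio of Krt8 FPKM to Krt18 FPKM within a library was 0.993 and 1.07 in knockout livers, 0.988 and 1.11 in treated wild-type livers, and 0.823 and 0.736 in control replicates 3 and 6. All 4 treated livers thus had more Krt8 relative to Krt18 than either control, whereas the 2 genotypes overlapped. In wild type the ratio was 1.34-fold higher after acetaminophen, and an exact two-sided permutation test of 2 against 2 gave p = 0.33, the smallest it can give. Between treated knockout and treated wild type it differed by 0.986-fold (exact permutation p = 1). A ratio within a library does not depend on how libraries are scaled.

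Sox9 (ENSMUSG00000000567, chr11:112782224-112787760, plus strand), a transcription factor of bile duct development, was the bile duct gene with the clearest order. Its FPKM was 9.53 and 8.75 in knockout livers, 5.34 and 2.94 in treated wild-type livers, and 0.376 and 0.519 in controls. The groups did not overlap, and treated wild-type replicate 4 stood lowest among the treated livers. The counts behind these values were 3309 and 2459 in knockout livers, 1579 and 938 in treated wild-type livers, and 101 and 178 in controls. In bulk liver, more cells that make Sox9 cannot be told apart from more Sox9 RNA per cell, and the same holds for the other members.

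Krt19 (ENSMUSG00000020911, chr11:100140810-100146120, minus strand), a type I keratin of bile ducts and of gut epithelium, was scarce and behaved otherwise. Its FPKM was 2.36 and 3.65 in knockout livers, 0.358 and 0.471 in treated wild-type livers, and 0.898 and 2.63 in control replicates 3 and 6. Control replicate 6 lay between the knockout livers, 2.93-fold above control replicate 3. Epcam (ENSMUSG00000045394, chr17:87635979-87651106, plus strand), an adhesion protein of bile ducts and gut, had an FPKM of 1.44 and 3.06 in knockout livers, 0.536 and 0.646 in treated wild-type livers, and 0.474 and 1.28 in control replicates 3 and 6. Control replicate 3 was the lowest library and control replicate 6 was 2.69-fold above it.

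Both genes divided the libraries as the intestinal markers did. The lowest of the 3 libraries with intestinal traces (both knockout livers and control replicate 6) had 2.36 FPKM of Krt19 and 1.28 FPKM of Epcam, above the highest of the other 3, at 0.898 and 0.646 FPKM. Krt20, a keratin of gut epithelium, had 58 and 70 counts in knockout livers, 0 and 0 in treated wild-type livers, and 0 and 37 in control replicates 3 and 6. Muc2, a gut mucin, had 3.47 and 6.83 CPM in knockout livers, 0.0606 and 0.0563 CPM in treated wild-type livers, and 0.0676 and 4.13 CPM in control replicates 3 and 6. The part of these transcripts in the Krt19 and Epcam values was not tested. Krt8 and Krt18 did not divide in that way, since control replicate 6 had 0.916 times the Krt8 and 1.02 times the Krt18 FPKM of control replicate 3. Krt7 (ENSMUSG00000023039, chr15:101411043-101430313, plus strand), a type II keratin of bile ducts, was the scarcest of the 6 genes. Its counts were 45 and 106 in knockout livers, 23 and 49 in treated wild-type livers, and 22 and 61 in controls, or 0.0439 to 0.219 FPKM, and the groups overlapped. Tested without the filter, Krt7 had log2 fold changes of 1.09 in knockout against treated wild type and -0.02 in treated wild type against control (edgeR adjusted p = 0.858 and 1).

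**Figure D1:**
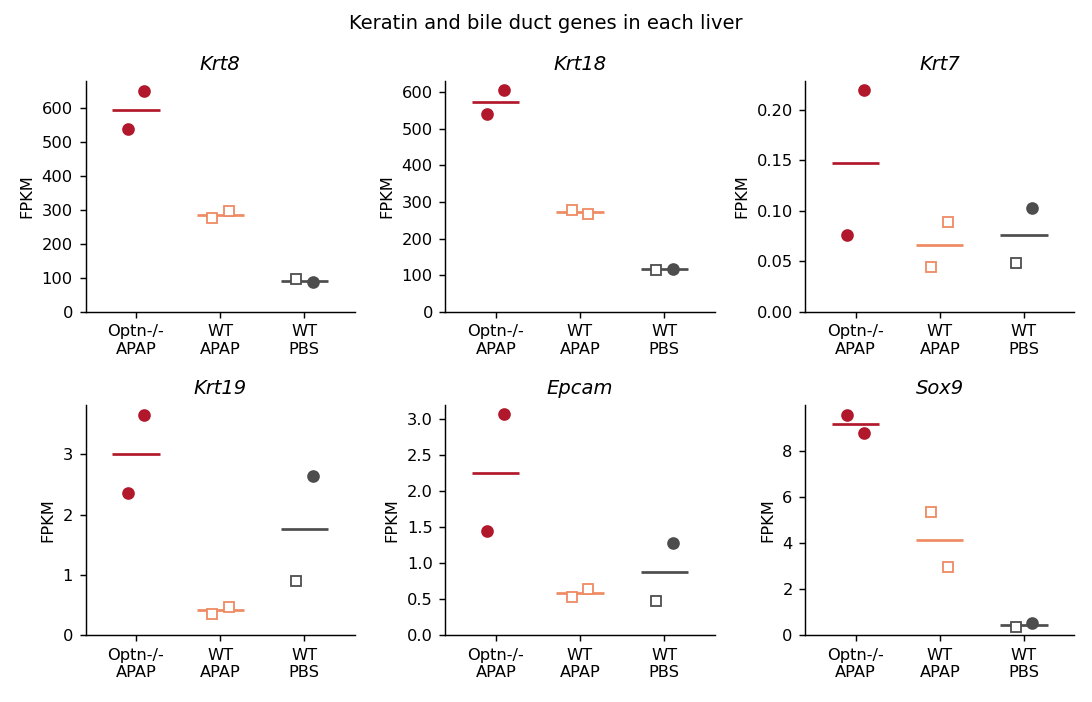
FPKM of each of the 6 genes (y axes, linear, from 0) in every liver, by group on the x axis (APAP, acetaminophen; PBS, saline control); bars are group means (n = 2), filled circles are the libraries with intestinal transcripts and open squares the others. Krt8, Krt18 and Sox9 step down across the 3 groups without overlap, whereas in Krt19 and Epcam every filled circle lies above every open square. The share of all genes that part in either way was not counted.

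**Figure D2:**
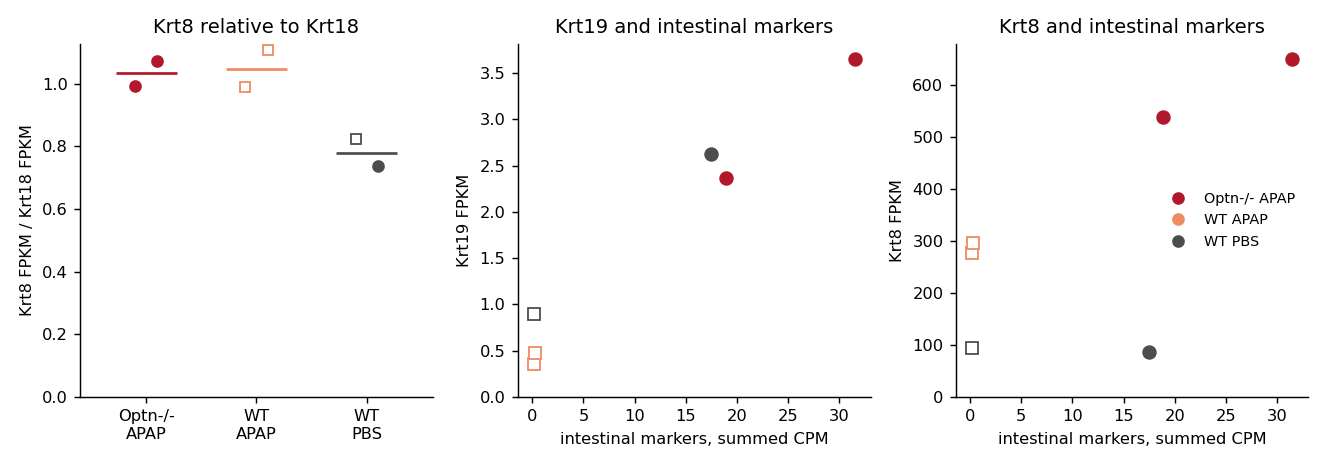
Left, the Krt8 to Krt18 FPKM ratio by group, with bars for group means (n = 2). Middle and right, FPKM of Krt19 and of Krt8 against the summed CPM of 14 intestinal markers (Fabp2 and Lgals4 left out), 1 point per liver, with symbols filled where these transcripts were present; the control with intestinal transcripts had 2.63 FPKM of Krt19, between the knockout livers, but 86.8 FPKM of Krt8, the lowest of all.

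Within the group of 6, the 2 hepatocyte keratins had the same order of groups, although not of livers within a group. Over the 6 libraries, which span the 3 groups and both sides of the tissue traces, log2 CPM of Krt8 had a Pearson r of 0.994 with Krt18 and 0.971 with Sox9, and Krt19 had 0.892 with Epcam. Krt8 and Krt19 had an r of 0.211. These values describe 6 points and carry no test. Per length the order of levels was not fixed either. In knockout livers Krt8 and Krt18 overlapped at the top, followed by Sox9, then Krt19 and Epcam, which overlapped, then Krt7. In controls Krt18 stood above Krt8, and Sox9 at 0.376 and 0.519 FPKM was not above Krt19 at 0.898 and 2.63 FPKM or Epcam at 0.474 and 1.28 FPKM.

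The first comparison asks what acetaminophen did to these genes in wild-type liver. Krt8, Krt18 and Sox9 rose, Krt19 and Epcam did not pass the test, and Krt7 was not tested. In edgeR's quasi-likelihood test over the 11677 genes whose mean FPKM reached 0.5, 5 of the 6 genes were tested and 3 rose at an adjusted p under 0.05, where 14.3% of all genes tested passed, 8.36% as higher and 5.92% as lower. Sox9 rose by 3.42 ± 0.36 on the log2 scale (± SE; adjusted p = 0.00522). Krt8 rose by 1.86 ± 0.14 (adjusted p = 0.00248) and Krt18 by 1.44 ± 0.12 (adjusted p = 0.00331), against a median of 0.03 over all genes tested. Of all genes tested, 1.82% had a log2 fold change at or above that of Sox9, 4.88% at or above that of Krt8 and 6.95% at or above that of Krt18.

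In log2 fold change Krt19 was at -1.86 ± 0.56 (adjusted p = 0.0789) and Epcam at -0.35 ± 0.57 (adjusted p = 0.719). Both values depended on which control was kept. Without control replicate 6, the control with intestinal transcripts, Krt19 was at -0.91 (adjusted p = 0.261) and Epcam at 0.51 (adjusted p = 0.621). Without control replicate 3, Krt19 was at -2.43 (adjusted p = 0.0432) and Epcam at -0.88 (adjusted p = 0.372). Krt8, Krt18 and Sox9 were at 1.79, 1.44 and 3.66 without control replicate 6 (adjusted p = 0.0195, 0.0240 and 0.0241), a comparison of livers in which the 14 intestinal markers summed to at most 0.281 CPM. The lone control is there assumed to vary like the livers of the other groups, and the same holds below wherever 1 control or knockout liver was left out. DESeq2, which called 26.6% of genes, and edgeR with no filter on low values, which called 7.2%, also called Krt19 lower (adjusted p = 0.00904 and 0.0497).

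The second comparison sets treated knockout against treated wild-type livers. Without saline-treated knockouts, a difference in the response and a difference already present before treatment cannot be told apart. All 5 genes tested were higher in knockout livers, but none passed edgeR's adjusted threshold. In the same test 12 genes passed, 0.103% of all tested, with 0.0514% higher and 0.0514% lower. On the log2 scale Krt18 was higher by 1.04 ± 0.12 (± SE; unadjusted p = 0.000162, adjusted p = 0.0956) and Krt8 by 1.03 ± 0.14 (unadjusted p = 0.000357, adjusted p = 0.167). Sox9 was at 1.10 ± 0.32 (adjusted p = 0.496), Krt19 at 2.81 ± 0.57 (adjusted p = 0.326) and Epcam at 1.88 ± 0.58 (adjusted p = 0.509). The median over all genes was -0.000583. At an unadjusted p under 0.05 all 5 genes passed, as did 8.77% of all genes tested. DESeq2 called Krt18, Krt8 and Krt19 (adjusted p = 9.44e-16, 2.29e-09 and 0.000285), where it called 2.42% of genes. The limma test on log2(FPKM + 0.5) called Krt18 alone (adjusted p = 0.0490), where it called 0.231% of genes, as did limma on log2(FPKM + 1) with 0.24% and edgeR on genes whose mean FPKM reached 5 with 0.305%.

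With the side of the tissue traces as a term in the edgeR model, the log2 fold changes were 1.18 for Krt8, 1.04 for Krt18, 0.67 for Sox9, 1.29 for Krt19 and 0.50 for Epcam, with adjusted p from 0.633 to 1. In that model the size of the trace term rests on the difference between the 2 controls. Against controls the model thus repeats the contrast without control replicate 6 in treated wild type and without control replicate 3 in treated knockout. All knockout livers held intestinal transcripts and no treated wild-type liver did, so genotype and trace cannot be told apart from these 4 libraries alone. The fold changes of Krt8 and Krt18 were as large with the term as without it, and those of Krt19, Epcam and Sox9 were smaller.

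In treated knockout against wild-type control livers, Krt8, Krt18 and Sox9 rose. Genotype and treatment both differ in this comparison, and without saline-treated knockouts their parts cannot be told apart. Here and in the lists below, rose and fell mean higher and lower than in controls. The test called 3 of the 5 genes tested, all higher, where 20.3% of all genes passed, 12.2% as higher and 8.05% as lower. Sox9 rose by 4.53 ± 0.37 on the log2 scale (± SE; adjusted p = 0.00201), Krt8 by 2.89 ± 0.15 and Krt18 by 2.48 ± 0.13 (adjusted p = 0.000878 for each), with a median over all genes of -0.00176. This comparison shares its controls with the first and its knockout livers with the second. Without control replicate 3, so that every library held intestinal transcripts, they were at 4.33, 2.97 and 2.48 (adjusted p = 0.0173, 0.00911 and 0.0102). Krt19 had 0.95 ± 0.53 (adjusted p = 0.259) and Epcam 1.54 ± 0.57 (adjusted p = 0.114). Without control replicate 3 they had 0.39 and 1.01 (adjusted p = 0.607 and 0.317), and without control replicate 6 they had 1.90 and 2.39 (adjusted p = 0.0650 and 0.0695). DESeq2, which called 31% of genes, called Epcam higher (adjusted p = 0.0415).

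**Figure D3:**
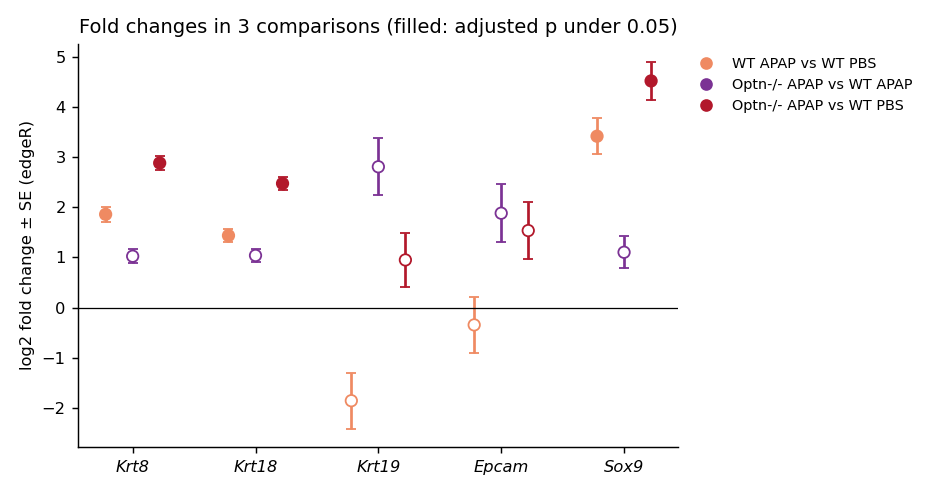
log2 fold change (y axis) with its SE for the 5 genes tested (x axis), from edgeR's quasi-likelihood test on 2 livers a group; colours stand for the 3 comparisons and filled points had an adjusted p under 0.05. Krt8, Krt18 and Sox9 are filled against controls in both treated groups, at 1.44 to 4.53, and no point is filled between treated knockout and treated wild type.

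Other keratins had few counts. Of 54 keratin genes in the table, 19 had a count in some library, and none of the 18 listed keratins beside the members reached the mean FPKM needed for the test. The markers of skin, where many keratins are made, summed to 3.50 to 7.04 CPM in knockout livers, 3.18 to 4.26 CPM in treated wild-type livers and 1.74 to 2.65 CPM in controls. Krt14 had at most 4 counts and Krt5 at most 8, whereas Krt10 had up to 100. Lor had the most of these markers, with 428 counts in knockout replicate 4. Mesothelium, the lining of the liver surface, also makes Krt7 and Krt19. Its 8 markers, which include those 2 keratins, summed to 8.02 and 10.1 CPM in knockout livers, 2.79 and 16.8 CPM in treated wild-type livers, and 7.86 and 7.16 CPM in controls. The sums say little of mesothelium, since treated wild-type replicate 4 had 973 counts of Gpm6a, which neurons also make, against at most 102 elsewhere, and in knockout replicate 5 only Gpm6a, Krt7 and Krt19 had a count. The mesothelial marker Msln had 61 and 0 counts in knockout livers, 20 and 24 in treated wild-type livers, and 75 and 12 in control replicates 3 and 6. The part of mesothelium in the Krt7 and Krt19 values was not tested.

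Other genes of the bile duct did not follow Sox9 as a group. The cholangiocyte list of 10 markers, which holds 4 of the members, summed to 114 and 151 CPM in knockout livers, 104 and 67.5 CPM in treated wild-type livers, and 49.1 and 56.7 CPM in controls, with Spp1 the largest contributor in every library. Of 20 other bile duct genes, 7 were tested, and in treated wild type 1 rose and 1 fell, with a median log2 fold change of -0.10. Of all genes tested, 8.36% rose and 5.92% fell there. Spp1 (osteopontin, a secreted protein also made by macrophages) rose by 1.24 ± 0.30 (SE, edgeR adjusted p = 0.0479). Cftr, the chloride channel of the duct lining, had 0 and 15 counts in knockout livers, 0 and 0 in treated wild-type livers, and 0 and 4 in control replicates 3 and 6. Between the treated genotypes none of the 7 passed in edgeR, at an unadjusted p under 0.05 or in DESeq2. Of all genes tested, 0.103%, 8.77% and 2.42% passed there, in that order of rules. In treated knockout against control livers 12.2% of all genes rose and 8.05% fell. Of the 7, 2 rose (Spp1 and Cd24a) and 1 fell, the transcription factor Onecut1. Those knockout calls did not hold without knockout replicate 5 or without control replicate 3. The fit with the trace term, which gives the same contrast as leaving out control replicate 3, is no separate check. Without control replicate 6 the rises did not hold either. In treated wild type Spp1 missed the threshold with total-count scaling, with limma and in 5 of the 6 fits that left out 1 library. The list median was 0.05 without control replicate 3 and 0.18 without treated wild-type replicate 4.

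Genes tied to SOX9, Notch and YAP signalling moved upward in part. Of 18 such genes, 12 were tested. In treated wild type 5 rose and none fell (median log2 fold change 0.60), where 8.36% of all genes rose and 5.92% fell. In treated knockout against control 7 rose and 1, Fgfr3, fell (median 0.84), where 12.2% of all genes rose and 8.05% fell. Ccn1, a secreted matrix protein and target of YAP, had an FPKM of 97.7 and 135 in knockout livers, 33.7 and 39.7 in treated wild-type livers, and 2.31 and 1.55 in controls. The groups were widely apart, in the order seen for Krt8, Krt18 and Sox9. Ccn1 rose by 4.46 ± 0.28 in treated wild type (SE, edgeR adjusted p = 0.00165), and was at 1.63 ± 0.24 in knockout against treated wild type (adjusted p = 0.204). Ccn2, a related YAP target, rose by 2.62 ± 0.33 in treated wild type (adjusted p = 0.00864), and Hes1, a Notch target, by 1.69 ± 0.20 (adjusted p = 0.00696). Between the treated genotypes none of the 12 passed edgeR's test (median 0.26), whereas 3 were higher at an unadjusted p under 0.05 and DESeq2 called 2. Of all genes tested there, 0.103% passed edgeR's test, 8.77% had an unadjusted p under 0.05 and DESeq2 called 2.42%. Against controls, every fit that left out 1 library called fewer of all genes than the reported test, here and for the lists below. Leaving out 1 library gave 3 to 5 rises in treated wild type (3 without either control or without treated wild-type replicate 4), and 3 to 8 in treated knockout (3 without knockout replicate 5 or control replicate 3).

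Genes listed as intermediate filament partners and lamins, not all of them for proteins that bind keratin, rose in part. Of 15 such genes, 10 were tested. In treated wild type 5 rose and 1 fell (median log2 fold change 0.42), beside 8.36% and 5.92% of all genes. Treated knockout against control gave 5 rises and no fall (median 0.76), beside 12.2% and 8.05%. Eppk1 (epiplakin, which binds keratin filaments) rose by 2.55 ± 0.28 in treated wild type (SE, edgeR adjusted p = 0.00596), as did the linker proteins Plec by 0.69 ± 0.12 and Ppl by 1.36 ± 0.26 (adjusted p = 0.0194 and 0.0249). Nes, the intermediate filament protein nestin, rose by 2.82 ± 0.45 (adjusted p = 0.0156). The gene that fell was Lmnb2, a nuclear lamin. Leaving out 1 library gave 1 to 4 rises in treated wild type (1 without control replicate 6, 2 without control replicate 3 or treated wild-type replicate 4), and limma on log2(FPKM + 0.5) gave 1. Between the treated genotypes none of the 10 passed in edgeR (median 0.37) or DESeq2, and 2 were higher at an unadjusted p under 0.05. The shares of all genes were 0.103%, 2.42% and 8.77% in the same order.

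Genes listed as linked to keratin inclusions in liver, not all of them for components, rose in part in both treated groups. All 11 listed genes were tested, and in treated wild type 6 rose and none fell (median log2 fold change 0.86), beside 8.36% and 5.92% of all genes. In treated knockout against control 7 rose and 1, the co-chaperone gene Stip1, fell (median 1.41), beside 12.2% and 8.05%. Sqstm1, which encodes p62, had an FPKM of 339 and 357 in knockout livers, 273 and 361 in treated wild-type livers, and 103 and 104 in controls. All treated livers lay above both controls and the 2 treated genotypes overlapped, unlike Krt8 and Krt18. Sqstm1 rose by 1.82 ± 0.16 in treated wild type (SE, edgeR adjusted p = 0.00331), the tubulin gene Tubb6 by 3.27 ± 0.20 (adjusted p = 0.00159) and the cross-linking enzyme Tgm2 by 1.66 ± 0.21 (adjusted p = 0.00901). Between the treated genotypes none of the 11 passed in edgeR, at an unadjusted p under 0.05 or in DESeq2, with a median of -0.11. The shares of all genes were 0.103%, 8.77% and 2.42% in the same order. Leaving out 1 library gave 2 to 5 rises in treated wild type (2 without control replicate 3) and 3 to 5 in treated knockout (3 without control replicate 3).

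Genes of epithelial junctions, where keratin filaments end at desmosomes, fell in part. Of 16 such genes 14 were tested, and in treated wild type none rose and 5 fell (median log2 fold change -0.20), beside 8.36% and 5.92% of all genes. Treated knockout against control gave no rise and 6 falls (median -0.28), beside 12.2% and 8.05%. The tight junction gene Cldn3 had an FPKM of 26.5 and 20.1 in knockout livers, 20.4 and 18.7 in treated wild-type livers, and 56.8 and 55.1 in controls. In treated wild type it fell, at -1.30 ± 0.18 on the log2 scale (± SE; adjusted p = 0.0109). The tight junction genes Cldn2 and Ocln fell too, at -1.01 ± 0.20 and -1.04 ± 0.21 (adjusted p = 0.0263 and 0.0306), and Dsp, the desmosomal protein that holds keratin filaments, fell at -0.61 ± 0.13 (adjusted p = 0.0353). In knockout against treated wild type Dsp had a value of 0.50 ± 0.13 (adjusted p = 0.489) and the list a median of 0.01. There none of the 14 passed in edgeR, whereas 2 were higher and 2 lower at an unadjusted p under 0.05 and DESeq2 called 1, as lower. The shares of all genes, either way, were 0.103%, 8.77% and 2.42% in the same order. Leaving out 1 library gave 0 to 3 falls in treated wild type (0 without control replicate 3) and 1 to 5 in treated knockout (1 without knockout replicate 5 or control replicate 3).

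**Figure D4:**
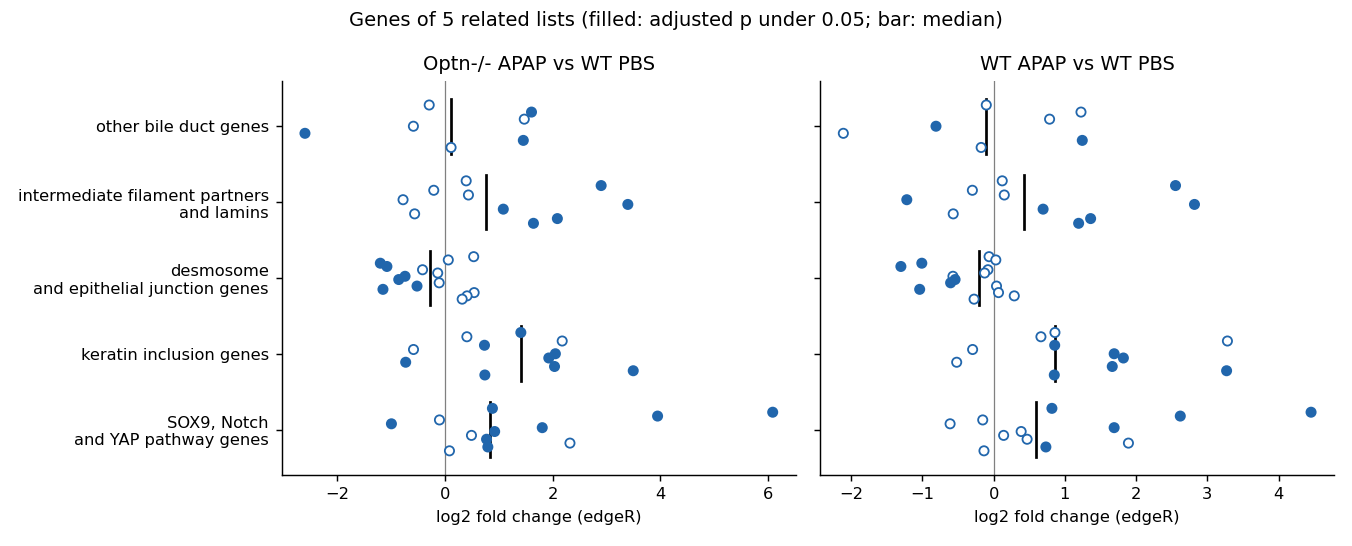
log2 fold change of each tested gene of 5 related lists (rows) in treated knockout against control livers (left) and treated wild type against control livers (right), with filled points for an adjusted p under 0.05 in edgeR and a bar for the list median. Medians run from -0.28 for junction genes to 1.41 for inclusion genes on the left, and from -0.20 to 0.86 on the right.

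The tested genes whose log2 CPM was most like that of each member over the 6 libraries were looked up among 9858 genes with protein names. For Krt8 these were Fst, Stfa2l1 and Fth1 (Pearson r of 0.999, 0.997 and 0.997), and for Krt18 Chil3, Lamc1 and Gjb2 (0.999, 0.998 and 0.997). For Sox9 they were Pik3r5, Phtf2 and Lsp1 (0.999, 0.998 and 0.998). Fst, the activin-binding protein follistatin, had an FPKM of 2.52 and 3.15 in knockout livers, 0.956 and 1.13 in treated wild-type livers, and 0.238 and 0.191 in controls. It shows the same 3 steps as Krt8 at a far lower level. For Krt19 the nearest genes were Rapgef1, Ssh3 and Tspan1 (0.992, 0.992 and 0.984), and for Epcam Eif2ak2, Notch2 and Renbp (0.996, 0.991 and 0.988). Tspan1 had 1.09 and 1.44 FPKM in knockout livers, was listed at 0 counts in both treated wild-type livers, and had 0.0748 and 1.09 FPKM in control replicates 3 and 6, the division seen for the intestinal markers. With 6 points many genes reach such values, since 326 genes had an r of at least 0.95 with Krt8, 271 with Krt18, 415 with Sox9, 30 with Krt19 and 27 with Epcam.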

How the data were processed

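RNA was selected for poly(A) and sequenced as paired ends, per the labels' protocols. The deposited table gives a raw count per gene and library, and FPKM values computed by the authors. Bowtie 0.12.2 and build mm8 are named in the submitters' processing notes. The table's coordinates equal those of GENCODE M21 (GRCm38) for 94.28% of shared genes, so GRCm38 is used. How reads were counted, and whether by strand, is stated in none of the sources used here. Counts of 4 were far more frequent than counts of 3 or 5, so small counts may overstate precision.

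Genes whose mean FPKM reached 0.5 (11677) were tested on the counts with edgeR 4.0.16 (R 4.3.3, TMM scaling, quasi-likelihood test, 3 group means over all 6 libraries, 3 residual degrees of freedom), with Benjamini-Hochberg adjustment over all genes tested and a threshold of 0.05. The SE is the log2 fold change divided by the square root of F. The edgeR script was tested on simulated data. Alternatives were DESeq2 1.42.0, limma 3.58.1 on log2(FPKM + pseudocount), other scaling and filters, the library traces as a term, and each library left out. The members and lists were chosen with earlier results of these data known. Named genes were all members, up to 4 genes of each list with the smallest p in a comparison, and the 3 genes most correlated with each member; genes outside this rule (Fgfr3, Cftr and genes of the marker lists, and Lmnb2 and Stip1 where named beside another comparison than the rule's) were named after their values were seen. One listed bile duct gene is counted with its list but is not reported by itself here. Of the listed genes, 169 matched by symbol and 2 through RefSeq synonyms. No replicate pair lay within sampling noise (mean chi-square per gene 77.7 to 185). Nothing says how the mice were raised or grouped, so p-values measure only the spread between these samples, and ranges of counts cover counting error only.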

Additional observations from a re-analysis of the deposited data

How the results depend on the processing

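Krt8, Krt18 and Sox9 kept their direction and their side of the threshold against controls, in both treated groups, under every alternative that tested them, and Sox9 was not tested at a mean FPKM of at least 5. Over all 3 comparisons the log2 values of members changed side or sign in 12 of 246 alternative values, of which 10 moved past the threshold. These values, and those of the list genes below, include fits that left out a library outside the comparison. There the log2 values hardly move, so the shares do not measure how firm the values are. The 2 reversed values were those of Epcam in treated wild type, at 0.51 without control replicate 6 and with the trace term, which give the same contrast there. For the named list genes, 110 of 988 alternative values were no longer past the threshold, and Elf3 (-0.80) and Cd24a (-0.32) reversed between the treated genotypes with the trace term. Leaving out 1 library moved Epcam in treated wild type between -0.88 and 0.51. Over all its alternatives the adjusted p of Krt19 ran from 0.00904 to 0.261 in treated wild type, and that of Epcam from 0.0415 to 0.427 in treated knockout against control. The cause of these changes was not tested.

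Between the treated genotypes the count of members called was 3 with DESeq2, 1 with limma at pseudocounts of 0.5 and 1, and 1 at a mean FPKM of at least 5, against 0 in the reported test. There the count of genes called was 12, against 283 with DESeq2, 27 and 28 with limma, 37 without a filter, 30 with only the 4 libraries compared and 3 with the trace term, and 1 to 29 leaving out 1 library (1 without knockout replicate 4). In treated wild type 1667 genes were called, against 3102 with DESeq2, 819 at a mean FPKM of at least 5, 812 with the trace term and 494 to 1263 leaving out 1 library (494 without control replicate 3). In treated knockout against control 2366 were called, against 3619, 1035, 960 and 750 to 2201 (750 without knockout replicate 5). Scaling by total count moved the median of all genes to -0.19 in both comparisons with controls, and the calls to 724 higher and 1497 lower in treated wild type, against 976 and 691 with TMM, and to 1137 higher and 1768 lower in treated knockout, against 1426 and 940. Dividing counts by 4, an alternative added after seeing the data, gave 1701, 9 and 2428 genes in the 3 comparisons. No paired analysis was possible because the treated groups share only replicate number 4 and the controls share none with them. Low counts of Krt7, Krt19 and Epcam limit what 2 livers a group can show.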
